A study of Mus musculus with 12 samples.

Results

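The genes of cholesterol and fatty acid synthesis were followed in mouse thymus across 2 sex chromosome complements, each with and without Sry, the Y-linked gene that starts testis development. The 31 genes were chosen by symbol as members of these pathways, and 30 of them were found in the probe table: 15 of 16 enzymes of cholesterol synthesis, 6 genes of sterol control and transport, and 9 enzymes of fatty acid synthesis and desaturation. Acat2 was not analysed here. The 30 genes are a small part of 18193 genes named by probe sets with 1 symbol, of which 9496 were bright enough to be tested, the 30 among them. Each gene was read from 1 probe set (a group of short probes for a transcript), the one with the highest mean over all arrays.

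Thymus RNA had been hybridised to 12 Affymetrix arrays, 3 biological replicates in each of 4 groups of mice killed at 7 to 8 weeks of age. The groups were XXsry (labelled male), XX (labelled female), XY-sry (labelled male) and XY- (labelled female). As background, these names are those of the mouse cross known as the 4 core genotypes, in which the Y chromosome has lost Sry and gonadal males carry Sry as a transgene; the labels name neither the cross nor the strain. Adult males and females differ in gonads and hormones as well as in Sry, so Sry and the gonadal sex that comes with it cannot be told apart here. The labels mention no gonadectomy and do not say whether RNA of several mice was pooled.

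Animal cells make cholesterol from acetyl-CoA through the mevalonate pathway and make fatty acids from the same precursor. When sterols are scarce, SCAP carries the membrane-bound factors SREBP1 and SREBP2 (encoded by Srebf1 and Srebf2) from the endoplasmic reticulum to the Golgi, where they are cut and freed to enter the nucleus. When sterols are plentiful, the INSIG proteins hold SCAP back. SREBP2 is known mainly for switching on cholesterol genes and SREBP1 for fatty acid genes, and dividing thymocytes are among the cells that need both products to build membrane.

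The labels were checked first. The Sry probe set read 6.74 to 6.95 on the log2 scale in XXsry thymus and 5.33 to 5.39 in XX thymus, and 6.84 to 7.2 in XY-sry thymus and 5.23 to 5.65 in XY- thymus. Xist, the RNA through which an X chromosome is silenced, read at least 11.1 in every XXsry and XX array and at most 4.19 in every XY-sry and XY- array. The thymus label was checked against 11 markers of double-positive thymocytes, and Rag1, a recombinase subunit they use, read 11.78 to 11.96 in all 12 arrays. XY- replicate 2 stood apart. Its median log2 value was 4.1 where the other arrays had 4.02 to 4.05, and its actin 3′ minus 5′ difference, a measure of RNA integrity, was 0.51 where the others had 0.66 to 0.83.

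Other measured features moved with Sry too. The actin difference was 0.74 to 0.83 in XY-sry thymus and 0.51 to 0.69 in XY- thymus, without overlap, and 0.71 to 0.76 in XXsry thymus and 0.66 to 0.77 in XX thymus. All 15 tested markers of cycling cells had a positive Sry difference (median log2 difference 0.16), although 1 of them, the replication helicase subunit Mcm6, passed the test. Their summed linear signal was 17595 to 18209 in XXsry and 15905 to 17257 in XX thymus, and 17782 to 19335 in XY-sry and 15244 to 17850 in XY- thymus. All 6 tested B cell markers had a negative difference (median -0.51, 4 lower past the threshold), as had 6 of 6 neutrophil markers (median -1.06, none past it). All 12 tested dendritic cell and macrophage markers also had a negative difference (median -0.15, none past it). Of all tested probe sets, 3.95% were called higher and 2.61% lower for Sry over both complements. The other marker lists were less uniform: 8 fat markers had a median of -0.08 with none called, 11 double-positive thymocyte markers -0.04 with 1 lower, 12 thymic epithelium markers 0.04 with 1 higher and 1 lower, and 9 fibroblast and vessel markers 0.01 with 3 higher. Both tested parathyroid and thyroid markers were higher (median 0.82) and the single tested red cell marker had 0.02, not called. In whole thymus, fewer cells of a type and less RNA per cell cannot be told apart, and the part of these cell markers in the results below was not tested. The actin difference was fitted as a covariate, and its effect is given beside the results it touched.

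**Figure D1:**
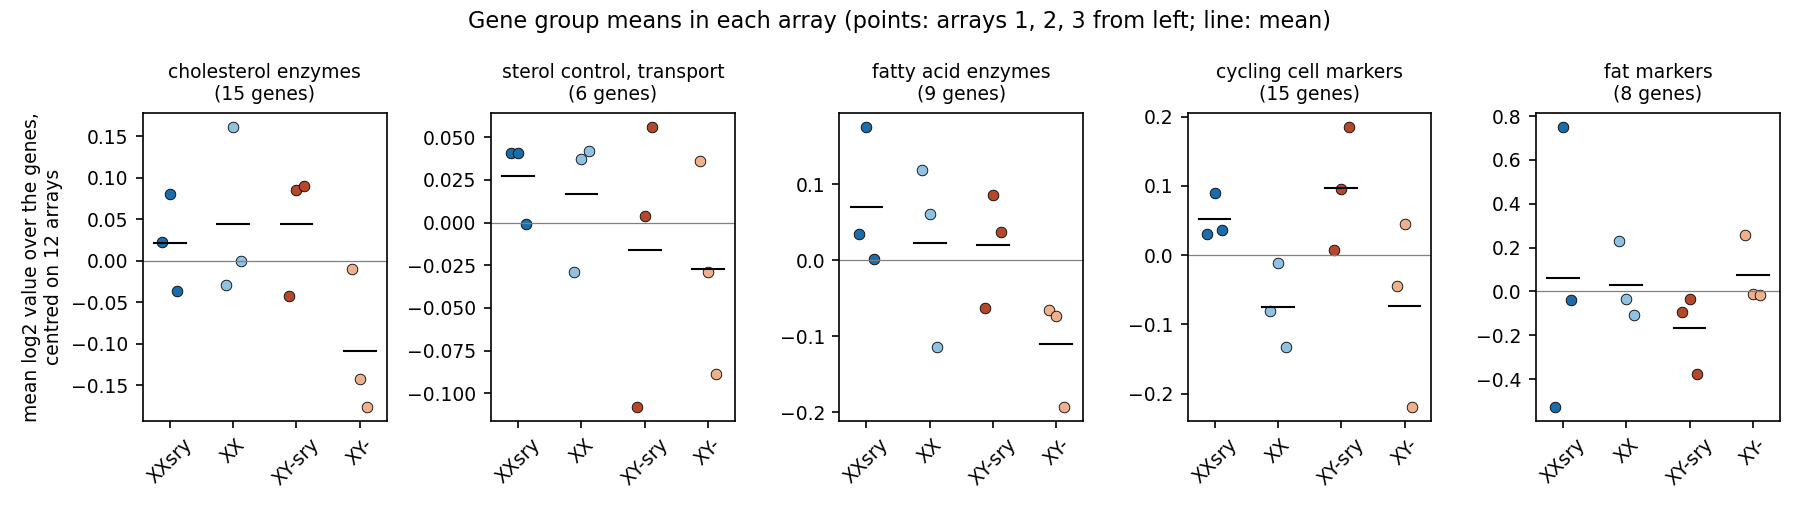
Mean log2 value of each gene group in each of the 12 arrays (vertical axis, centred on the mean of the 12 arrays), with 1 point per array and a line at the group mean, for the cholesterol enzymes, the sterol control genes, the fatty acid enzymes, the cycling cell markers and the fat markers; each panel has its own scale. The 3 XY- arrays held the lowest group mean for the cholesterol enzymes, at -0.11, and for the fatty acid enzymes, also at -0.11.

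Sry was accompanied by higher signal of Acaca, the gene for the first committed enzyme of fatty acid synthesis. Srebf2 and Scap, of the machinery that switches the pathway on, also passed as higher, and the desaturase gene Scd2 as lower. These further calls were less stable. With 1 array left out, the call held in 12 of 12 fits for Acaca, 2 for Srebf2, 5 for Scap and 5 for Scd2. Over both complements 4 of the 30 genes passed (limma with Benjamini-Hochberg adjustment over all 17925 tested probe sets, adjusted p under 0.05), against 6.56% of all tested probe sets. Acaca, Srebf2 and Scap rose and Scd2 fell; the shares of all probe sets called in those directions were 3.95% higher and 2.61% lower. In the probe sets used the changes were small, with the largest at 1.21-fold. A further Scd2 probe set fell more, as described with the other probe sets. At an unadjusted p under 0.05 there were 11 genes, against 24.9% of all probe sets. Of the 30 genes 23 (76.7%) had a positive difference, with a median log2 difference of 0.07, against 57.4% and 0.02 for all tested probe sets. A test for any difference among the 4 groups, which needs no choice of comparison, passed for Acaca alone (adjusted p = 0.0347), against 3.99% of all probe sets.

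**Figure D2:**
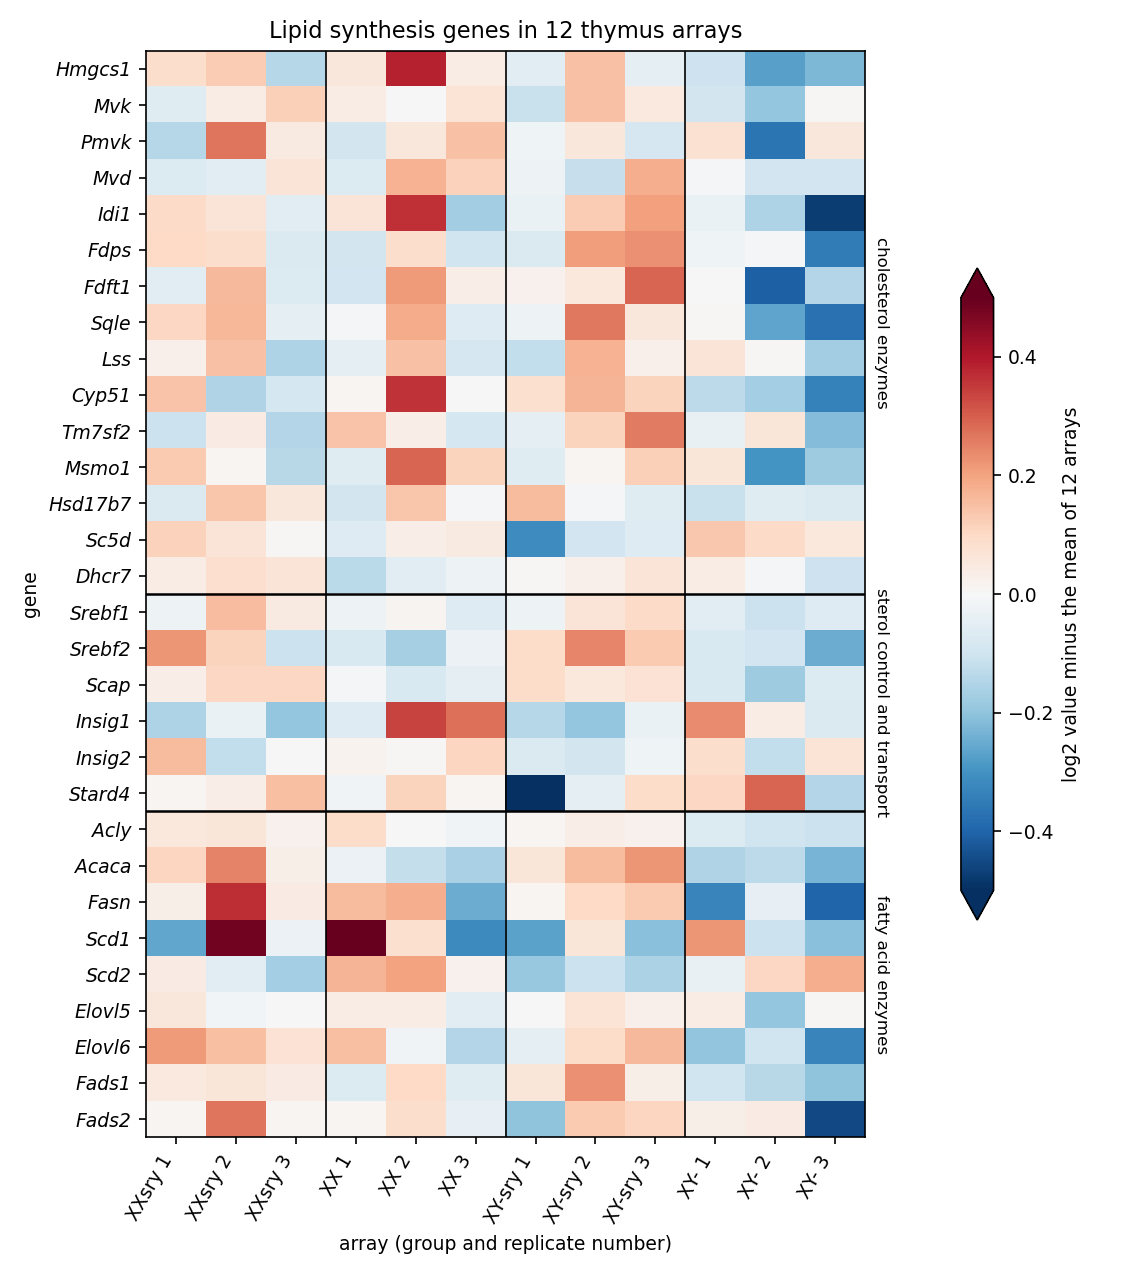
Log2 value of each of the 30 genes in each array minus that gene's mean over the 12 arrays (colour), with genes in rows by role and arrays in columns by group. Acaca is above its mean in every XXsry and XY-sry array, most cholesterol enzymes are low in XY- replicates 2 and 3, and several are high in XX replicate 2.

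Promoters of 24 of the 31 genes were listed in RefSeq (build GRCm38.p6), from 250 bases before to 50 after the annotated start. They were searched on both strands for 2 forms of the sterol element bound by SREBP, TCACNCCAC and TCANCCCAC, and for the CCAAT box (CCAAT), the E box (CACGTG) and the GC box (GGGCGG), the last 3 bound by other or by several factors. Some genes have several listed starts, so the 24 genes gave 32 promoters. Either sterol form was found in 2 of the 32, those of Hmgcs1 and Elovl5, and in 2.07% of all 32851 promoters; the first form alone was in 1.24% and the second in 1.38%. A CCAAT box was found in 20 of the 32 and in 37.4% of all promoters, a GC box in 23 of 32 and 35.7%, and an E box in 7 of 32 and 7.15%. The promoters shown are those of Srebf2, Scap, Sc5d and Hmgcs1. Srebf2 and Scap passed the Sry comparison, and the chosen probe set of Sc5d fell in XY- thymus while its second one did not. The Hmgcs1 promoter held the sterol element at position -137 from the start, in letters that match both of its forms. Capitals mark the motifs named above; they read GGGCGG or CCGCCC for the GC box, ATTGG for the CCAAT box on the other strand, CACGTG for the E box and TCACCCCAC for the sterol element. They lie at chr15:82147019-82147318 on the plus strand for Srebf2, chr9:110333038-110333337 on the plus strand for Scap (the first of 2 listed starts), chr9:42264251-42264550 on the minus strand for Sc5d and chr13:119690101-119690400 on the plus strand for Hmgcs1.
Srebf2: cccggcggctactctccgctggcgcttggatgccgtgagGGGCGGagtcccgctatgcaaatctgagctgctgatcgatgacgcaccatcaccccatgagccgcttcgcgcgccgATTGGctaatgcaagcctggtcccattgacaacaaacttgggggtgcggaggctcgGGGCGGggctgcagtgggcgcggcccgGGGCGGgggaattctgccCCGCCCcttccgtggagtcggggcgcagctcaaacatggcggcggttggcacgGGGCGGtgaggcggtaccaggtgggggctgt
Scap: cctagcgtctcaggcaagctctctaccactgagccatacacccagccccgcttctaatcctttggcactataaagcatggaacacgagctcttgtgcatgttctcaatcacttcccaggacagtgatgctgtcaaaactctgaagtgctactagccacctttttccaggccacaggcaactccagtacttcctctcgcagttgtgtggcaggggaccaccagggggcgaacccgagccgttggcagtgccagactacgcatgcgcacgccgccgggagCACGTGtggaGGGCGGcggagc
Sc5d: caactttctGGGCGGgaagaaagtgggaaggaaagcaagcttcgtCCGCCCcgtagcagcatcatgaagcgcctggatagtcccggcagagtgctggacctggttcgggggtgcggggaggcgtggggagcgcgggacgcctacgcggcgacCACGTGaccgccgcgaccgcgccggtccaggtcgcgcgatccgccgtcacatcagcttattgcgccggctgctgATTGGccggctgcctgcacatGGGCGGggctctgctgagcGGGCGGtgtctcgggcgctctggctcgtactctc
Hmgcs1: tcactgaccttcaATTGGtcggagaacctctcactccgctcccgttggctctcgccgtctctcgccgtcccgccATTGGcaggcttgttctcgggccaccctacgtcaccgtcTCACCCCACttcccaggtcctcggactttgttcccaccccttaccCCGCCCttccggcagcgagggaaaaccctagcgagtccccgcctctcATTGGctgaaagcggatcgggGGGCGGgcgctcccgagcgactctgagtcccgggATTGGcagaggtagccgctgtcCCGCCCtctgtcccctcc
The Srebf2 window held 5 GC boxes and 1 CCAAT box, and the Hmgcs1 window 4 CCAAT boxes and 3 GC boxes. The Scap window held 1 E box and 1 GC box and no CCAAT box. A match of letters is a description of the window and not evidence of binding.

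Among the genes of sterol control, Scap, which escorts both SREBPs, separated the arrays by Sry. It read 8.33, 8.4 and 8.4 in XXsry thymus against 8.29, 8.22 and 8.25 in XX thymus, and 8.39, 8.35 and 8.37 in XY-sry thymus against 8.22, 8.12 and 8.23 in XY- thymus. All 6 arrays with Sry lay above all 6 without it, which held for 2.28% of all probe sets. The log2 difference was 0.15 ± 0.0352 (SE, 12 arrays; limma adjusted p = 0.0287). With the actin difference as a covariate it was 0.11 (adjusted p = 0.127), and the call held in 5 of the 12 fits that left out 1 array, those without XXsry replicate 1, XY-sry replicate 2 or any 1 of the XY- arrays.

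Srebf2, which encodes SREBP2, read 7.57, 7.46 and 7.24 in XXsry thymus against 7.27, 7.18 and 7.32 in XX thymus. It read 7.44, 7.59 and 7.48 in XY-sry thymus against 7.27, 7.25 and 7.1 in XY- thymus. The XY-sry arrays lay above the XY- arrays without overlap, whereas XXsry replicate 3 fell among the XX arrays. Over both complements Srebf2 rose by 0.23 ± 0.0598 (limma adjusted p = 0.0418). The call held in 2 of the 12 fits that left out 1 array, those without XXsry replicate 3 or XY- replicate 2, and with the actin covariate the difference was 0.25 (adjusted p = 0.0891). A second Srebf2 probe set gave 0.23 as well (adjusted p = 0.0259).

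Insig1, itself a target of SREBP and a brake on it, pointed the other way without passing. It read 5.36, 5.48 and 5.32 in XXsry thymus against 5.45, 5.85 and 5.79 in XX thymus, and 5.37, 5.32 and 5.48 in XY-sry thymus against 5.75, 5.55 and 5.44 in XY- thymus. The arrays overlapped in both complements, and the difference was -0.25 ± 0.0753 (limma adjusted p = 0.0692). It passed without XX replicate 1 or without XY- replicate 3, with a lowest adjusted p of 0.0253.

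The other 3 genes of this group did not pass. Srebf1, which encodes SREBP1, differed by 0.10 (adjusted p = 0.149), Insig2, the second INSIG gene, by -0.05 (0.589) and Stard4, a carrier of cholesterol through the cytosol, by -0.12 (0.542). XY-sry replicate 1 had the lowest Stard4 value, 5.82, where the other arrays had 6.26 to 6.7. Of the 6 genes of control and transport, 2 rose and none fell, against 3.95% and 2.61% of all probe sets. Their median difference was 0.02, as for all probe sets.

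Acaca, which encodes the carboxylase that makes malonyl-CoA for fatty acid synthesis, had the smallest p of the 30 genes. It read 6.66, 6.8 and 6.58 in XXsry thymus against 6.52, 6.43 and 6.39 in XX thymus. It read 6.61, 6.71 and 6.77 in XY-sry thymus against 6.4, 6.42 and 6.32 in XY- thymus. Every array with Sry exceeded every array without it. Acaca rose by 0.27 ± 0.0483 on the log2 scale (limma adjusted p = 0.00838, 95% interval 0.17 to 0.38). The call held in all 12 fits that left out 1 array, with adjusted p up to 0.0259, and with the actin covariate.

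Scd2, a desaturase that puts the first double bond into long saturated chains, went the opposite way. It read 10.32, 10.22 and 10.11 in XXsry thymus against 10.45, 10.48 and 10.3 in XX thymus, and 10.09, 10.17 and 10.12 in XY-sry thymus against 10.24, 10.38 and 10.46 in XY- thymus. XXsry replicate 1 overlapped the XX arrays, and the XY-sry arrays lay below all XY- arrays. Scd2 fell by 0.21 on the log2 scale (SE 0.0529; limma adjusted p = 0.0359). The call held in 5 of the 12 fits that left out 1 array, those without XXsry replicate 1, XX replicate 3, XY-sry replicate 2, XY- replicate 1 or XY- replicate 2. It was lost with the actin covariate (-0.17, adjusted p = 0.141).

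The related desaturase gene Scd1 varied widely within groups, from 6.38 to 7.12 in XXsry and from 6.32 to 7.19 in XX thymus, and from 6.37 to 6.7 in XY-sry and 6.43 to 6.86 in XY- thymus. Its difference of -0.07 ± 0.156 was not called (adjusted p = 0.819). Its 3 highest values, in XXsry replicate 2, XX replicate 1 and XY- replicate 1, were in the 3 arrays with the highest mean of the fat markers (0.75, 0.23 and 0.26 above the mean of the arrays), an overlap chosen after the values were seen. Adipoq, made by fat cells, read 6.96 in XXsry replicate 2 and 3.68 in XXsry replicate 1.

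Fads1, a front-end desaturase for polyunsaturated fatty acids, read 7.02, 7.03 and 7.01 in XXsry thymus against 6.9, 7.07 and 6.91 in XX thymus. It read 7.03, 7.2 and 7 in XY-sry thymus against 6.87, 6.83 and 6.77 in XY- thymus. The groups overlapped in XX and separated in XY-. The difference over both complements was 0.16 ± 0.0466 (limma adjusted p = 0.0669), not called. Elovl6, which elongates saturated chains, differed by 0.21 ± 0.0618 (adjusted p = 0.0615), and Fasn, which encodes fatty acid synthase, by 0.23 ± 0.0929 (0.157). Acly, which makes cytosolic acetyl-CoA, differed by 0.07, Fads2 by 0.11 and Elovl5 by 0.04, none called. Of the 9 fatty acid enzymes, 1 rose and 1 fell, against 3.95% and 2.61% of all probe sets. A positive difference was found for 7 of the 9 (median 0.11), against 57.4% of all probe sets.

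**Figure D3:**
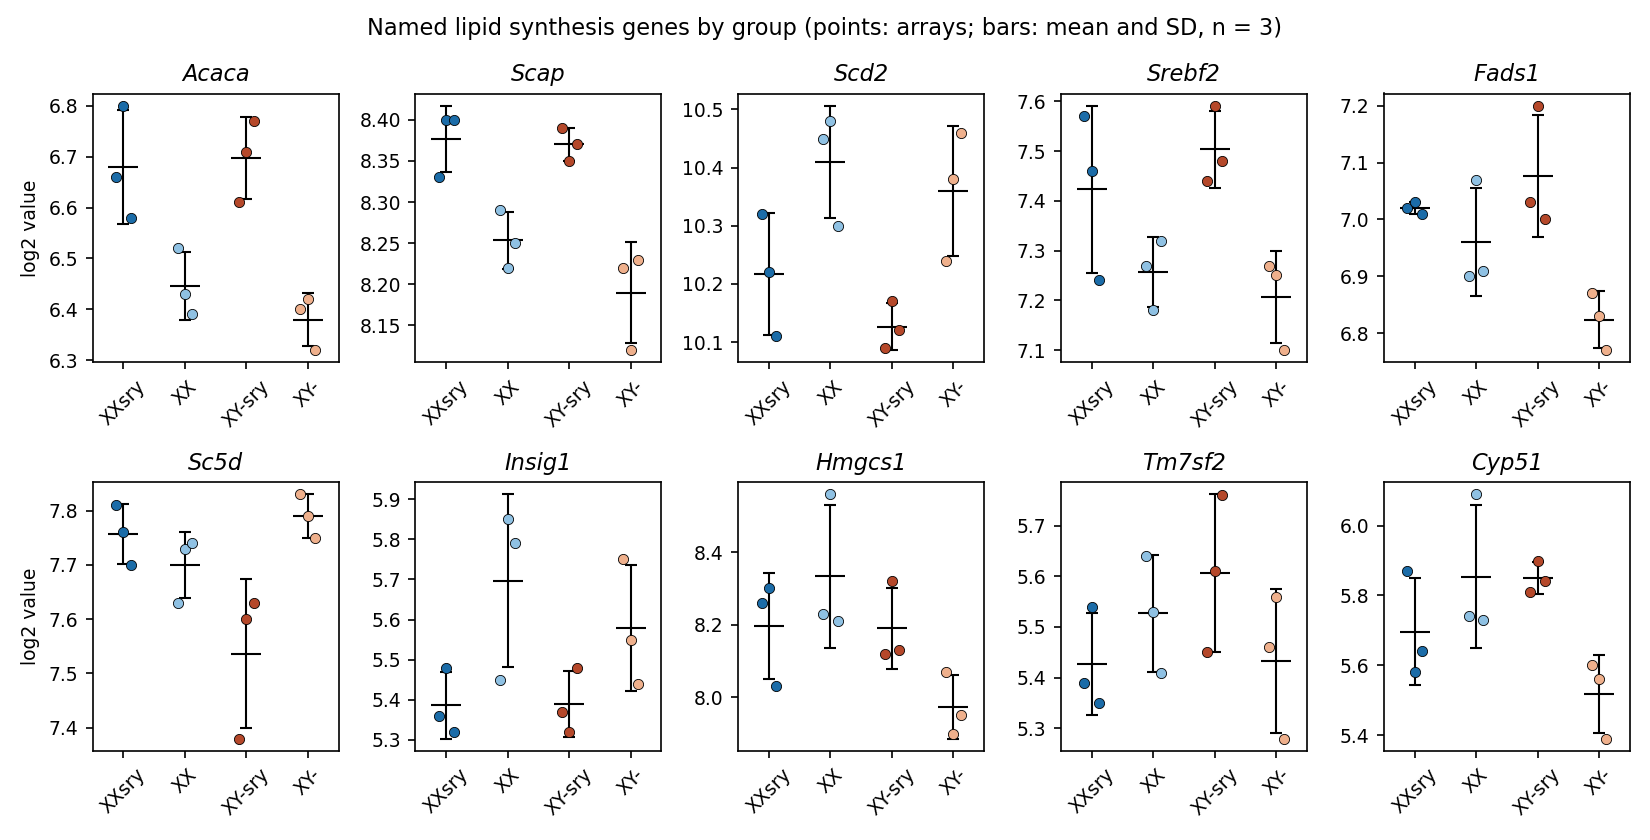
Log2 values of the 10 genes given array by array (vertical axes, a scale for each panel) by group, with points for arrays and bars for the mean and SD of 3. Acaca and Scap lie above their counterparts in both complements, Scd2 lies mostly below, and Cyp51 and Hmgcs1 have their lowest values in XY- thymus.

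None of the 15 cholesterol enzymes passed over both complements (limma adjusted p of 0.144 or more), against 6.56% of all probe sets. An unadjusted p under 0.05 was found for 2 of the 15, against 24.9% of all probe sets. Positive differences were found for 13 of them (median 0.06), against 57.4% of all probe sets. The differences ran from -0.10 for Sc5d to 0.17 for Sqle, squalene epoxidase, which controls flux in the later steps of the pathway. Fdps, which makes farnesyl diphosphate, differed by 0.16, Idi1, the isopentenyl diphosphate isomerase, by 0.14 and Fdft1, squalene synthase, by 0.13. Mvk, Pmvk and Mvd, the kinases and decarboxylase of mevalonate, differed by 0.06, 0.04 and -0.01. Lss, which closes the sterol rings, differed by 0.03. The later enzymes Msmo1, Hsd17b7, Tm7sf2 and Dhcr7 differed by 0.02, 0.07, 0.04 and 0.09.

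Within the XX complement alone no gene of the 30 passed (limma, smallest adjusted p = 0.191 for Acaca), against 0.742% of all probe sets, and 5 had an unadjusted p under 0.05, against 12.1%. Acaca differed by 0.23 ± 0.0683, Insig1 by -0.31 (adjusted p = 0.259), Scd2 by -0.19 (0.323), Dhcr7, the last enzyme of one branch to cholesterol, by 0.13 (0.341) and Scap by 0.12 (0.346). The XXsry and XX arrays did not overlap for 3 higher genes (Acaca, Scap and Dhcr7) and for no lower gene, against 10.8% and 10.6% of all probe sets. For 28 of the 30 genes the 95% interval lay within 0.5 of 0, so larger differences than that were outside the interval for those genes. The 15 cholesterol enzymes had a median of 0 with 7 positive.

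Within the XY- complement 4 genes passed, against 8.64% of all probe sets: Acaca, Fads1 and Scap rose (4.27% of all probe sets were called higher) and Sc5d fell (4.37% lower). Under median centring 1176 of the 1872 probe sets called in XY- were higher, next to 766 of 1549 as reported and the genes called were 6, all higher, with Sc5d not among them. Acaca rose by 0.32 ± 0.0683 (limma adjusted p = 0.0175), Fads1 by 0.25 ± 0.0659 (0.0366) and Scap by 0.18 ± 0.0498 (0.0453). At an unadjusted p under 0.05 there were 14 genes, against 26.1% of all probe sets. The XY-sry and XY- arrays did not overlap for 11 higher genes and 2 lower ones, against 18% and 9.39% of all probe sets. Srebf2 just missed, at 0.30 ± 0.0845 (adjusted p = 0.0509), and passed under 6 of the alternatives that kept all arrays and the threshold.

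With the actin difference as a covariate, which differed between these 2 groups, none of the 30 genes passed, where 0.301% of all probe sets did. The differences were then 0.34 for Acaca (adjusted p = 0.13), 0.35 for Fads1 (0.0955), 0.09 for Scap (0.474) and -0.20 for Sc5d (0.312). None of the 30 passed when only the 6 arrays compared were fitted. The share of all probe sets called in that fit is not given, so this count has no background beside it. Acaca lost its call without XY-sry replicate 3 (adjusted p = 0.0739) and kept it without each other array. Fads1 kept it in 4 of the 12 such fits, those without XXsry replicate 1 or any 1 of the XX arrays. Scap and Sc5d lost theirs without any 1 of the 12 arrays, with adjusted p from 0.05 to 0.13 for Scap and from 0.0502 to 0.134 for Sc5d.

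In this comparison 14 of the 15 cholesterol enzymes had a positive difference (median 0.16), and Sc5d was the exception. Of all probe sets 62.5% had a positive difference (median 0.04). Cyp51, the lanosterol demethylase, read 5.81, 5.9 and 5.84 in XY-sry thymus against 5.6, 5.56 and 5.39 in XY- thymus, a difference of 0.33 ± 0.104 (adjusted p = 0.0665). Sqle and Fdft1 differed by 0.31 each and Idi1 by 0.32, none past the threshold (adjusted p = 0.0987, 0.124 and 0.16). Hmgcs1, which makes HMG-CoA, read 8.12, 8.32 and 8.13 in XY-sry thymus against 8.07, 7.9 and 7.95 in XY- thymus, a difference of 0.22 (adjusted p = 0.212). The group mean of the 15 enzymes, centred on all arrays, was -0.04, 0.08 and 0.09 in the XY-sry arrays against -0.01, -0.14 and -0.18 in the XY- arrays. XY-sry replicate 1 thus lay below XY- replicate 1.

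Sc5d, the desaturase near the end of cholesterol synthesis, read 7.38, 7.6 and 7.63 in XY-sry thymus against 7.83, 7.79 and 7.75 in XY- thymus. It read 7.81, 7.76 and 7.7 in XXsry thymus against 7.63, 7.73 and 7.74 in XX thymus, where the arrays overlapped. It fell by 0.25 on the log2 scale in XY- (SE 0.069; limma adjusted p = 0.0435), and its second probe set did not follow, as described with the other probe sets.

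**Figure D4:**
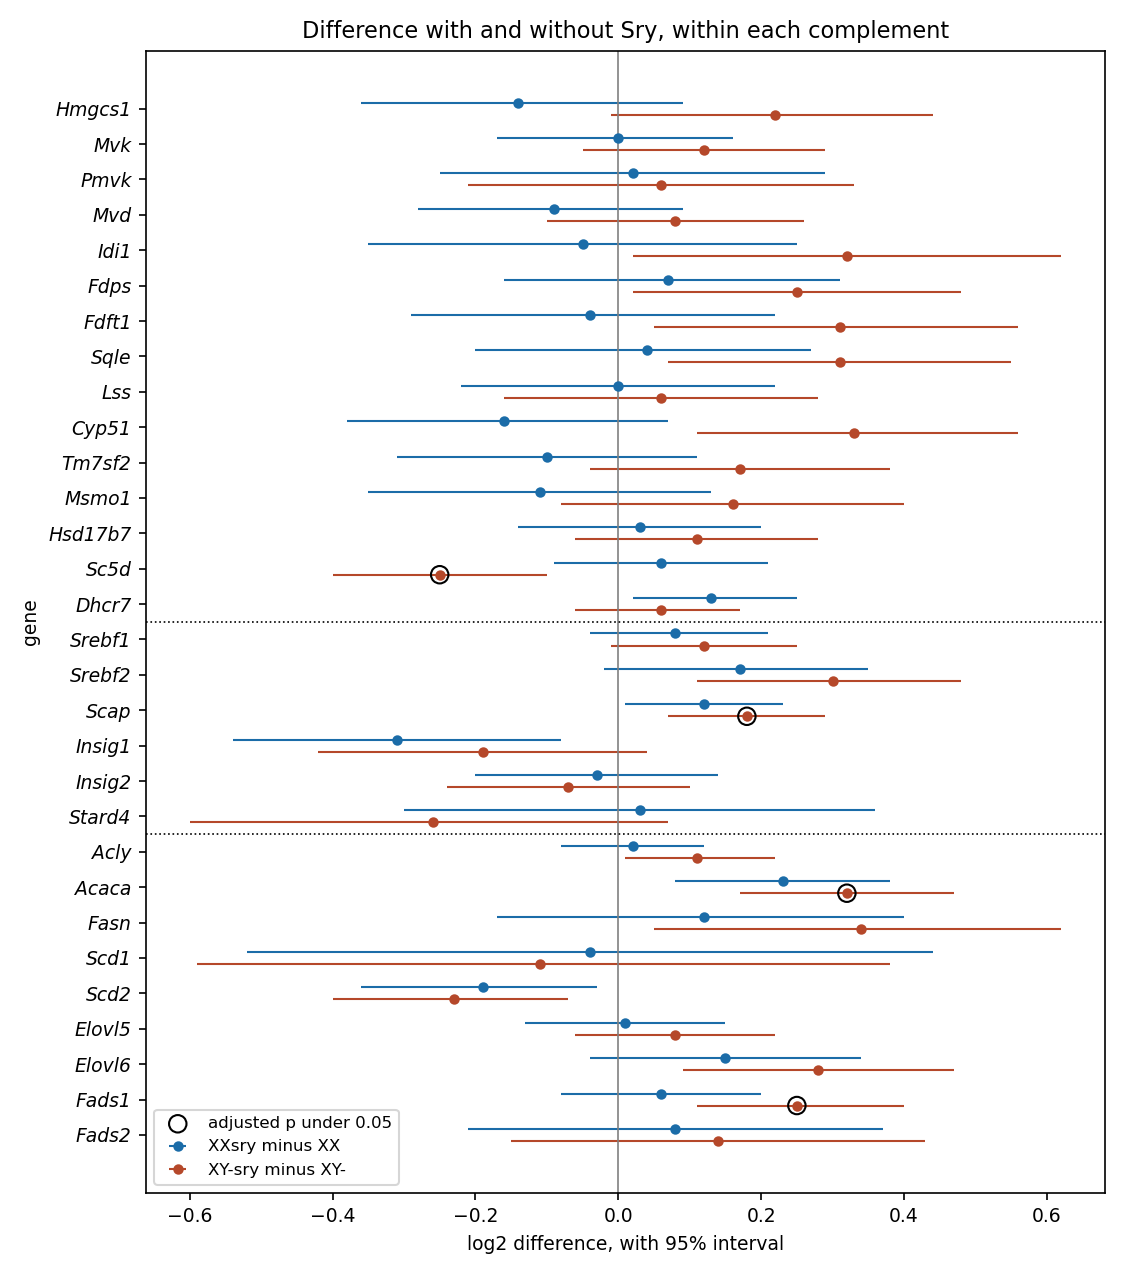
Log2 difference with its 95% interval for each of the 30 genes (vertical axis, by role), XXsry minus XX in blue and XY-sry minus XY- in red, with rings on adjusted p under 0.05. The 4 rings, on Sc5d, Scap, Acaca and Fads1, are all in the XY- comparison, and most intervals of the 2 comparisons overlap.

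Whether the Sry difference itself differed between complements was tested as an interaction. None of the 30 genes passed, against 1.29% of all probe sets, and 3 had an unadjusted p under 0.05, against 13.4%, a share no higher than the background. These were Cyp51 at -0.49 ± 0.147 (limma adjusted p = 0.153), Sc5d at 0.31 ± 0.0975 (0.177) and Hmgcs1 at -0.35 ± 0.147 (0.318), each the XX difference minus the XY- difference. Of the 30 genes 24 had a larger Sry difference in XY- than in XX, 13 of them among the 15 cholesterol enzymes. The same held for 11185 of all 17925 probe sets. The median interaction was -0.11 for the 30 genes, against -0.04 for all probe sets. The calls in XY- and their absence in XX therefore do not show that the complements differed. The intervals of 18 genes lay within 0.5 of 0, and the farthest bound was 0.811 in size.

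The sex chromosome complement was compared next, XX over XY-. None of the 30 genes passed over both gonadal sexes, against 0.0893% of all probe sets, with 2 at an unadjusted p under 0.05, against 4.25%. Hmgcs1 had the smallest p (0.18 ± 0.0735, limma adjusted p = 0.998). The differences were positive for 27 genes, with a median of 0.06, against 55.1% positive and a median of 0.01 for all probe sets.

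Without Sry, that is XX against XY-, none passed either, against 0.0781% of all probe sets, and 7 had an unadjusted p under 0.05, against 10.6%. Hmgcs1 read 8.23, 8.56 and 8.21 in XX thymus against 8.07, 7.9 and 7.95 in XY- thymus, a difference of 0.36 ± 0.104 (limma adjusted p = 0.289). Cyp51 read 5.74, 6.09 and 5.73 in XX thymus against 5.6, 5.56 and 5.39 in XY- thymus, a difference of 0.34 ± 0.104 (adjusted p = 0.312). Both sets of arrays were separate in the probe sets used, and XX replicate 2 was the highest for both genes. In the other tested Hmgcs1 probe sets the XX and XY- arrays overlapped. The second of them by mean level read 8.18, 8.44 and 8.17 in XX thymus against 8.19, 7.94 and 7.89 in XY- thymus. By the probe sets used, the arrays did not overlap for 4 higher genes (Hmgcs1, Cyp51, Acly and Fads1) and 1 lower gene (Sc5d), against 8.86% and 4.55% of all probe sets. The second Sc5d probe set overlapped, with means of 6.33 in XX and 6.24 in XY- thymus. The differences were positive for 27 of 30 genes, with a median of 0.11, against 60.9% positive and a median of 0.03 for all probe sets. This comparison and that of XY-sry with XY- use the same 3 XY- arrays, so low values there enter both.

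With Sry, that is XXsry against XY-sry, none passed, against 0.128% of all probe sets, and the single gene with an unadjusted p under 0.05, against 8.55%, was Sc5d. Its difference was 0.22 ± 0.069 (limma adjusted p = 0.305), and the XXsry arrays lay above the XY-sry arrays, as they did for 6.74% of all probe sets. The second Sc5d probe set did not follow, with 6.64, 6.27 and 6.48 in XXsry thymus against 6.49, 6.57 and 6.73 in XY-sry thymus. Tm7sf2, a sterol reductase, had the smallest p among negative differences. It read 5.39, 5.54 and 5.35 in XXsry thymus against 5.45, 5.61 and 5.76 in XY-sry thymus, overlapping, with a difference of -0.18 ± 0.0968 (adjusted p = 0.678). Its values were 5.64, 5.53 and 5.41 in XX thymus and 5.46, 5.56 and 5.28 in XY- thymus. The median over the 30 genes was 0.

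For completeness of the genes given array by array, Cyp51 read 5.87, 5.58 and 5.64 in XXsry thymus against 5.74, 6.09 and 5.73 in XX thymus, overlapping, and Hmgcs1 read 8.26, 8.3 and 8.03 in XXsry thymus against 8.23, 8.56 and 8.21 in XX thymus, also overlapping. Their Sry differences in XX were -0.16 and -0.14, neither called (adjusted p = 0.587 and 0.646).

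Several probe sets of the same gene did not always tell the same story. For 14 of the 30 genes 20 further probe sets were tested. With differences rounded to 2 decimals, 14 of the 20 had the sign of the first one for Sry over both complements and 17 of 20 within XY-. Over both complements the second probe sets of Hmgcs1, Idi1 and Insig2 rounded to 0, so they were counted as having no sign rather than the opposite one. The third Scd2 probe set showed a larger fall than the first. It read 6.55, 6.36 and 6.27 in XXsry thymus against 7.01, 6.84 and 6.71 in XX thymus, and 5.66, 6.21 and 6.08 in XY-sry thymus against 6.58, 6.91 and 6.92 in XY- thymus. All arrays with Sry lay below all arrays without it, as for 1.21% of all probe sets. It fell by 0.64 on the log2 scale over both complements (limma adjusted p = 0.00485) and by 0.82 within XY- (0.00802), and both calls held without any 1 array. The second Scd2 probe set differed by -0.19 (adjusted p = 0.07), and the mean over all 3 by -0.35 (0.00705).

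For some genes the probe sets parted, among them Sc5d, Stard4, Mvd and Insig2. The second Sc5d probe set read 6.49, 6.57 and 6.73 in XY-sry thymus against 6.35, 5.97 and 6.39 in XY- thymus, a difference of 0.36 (adjusted p = 0.0766) where the first fell by 0.25. Averaged over its probe sets Sc5d had 0.05 in XY- (adjusted p = 0.695), so its direction rests on the probe set chosen, and its interaction was 0.04 (0.914). The third Stard4 probe set rose by 0.29 in XY- (adjusted p = 0.0444) where the first and second each had -0.26. The second Mvd probe set rose by 0.19 over both complements (adjusted p = 0.0483) and by 0.32 in XY- (0.0199), where the first had -0.01 and 0.08. The third Insig2 probe set had means of 5.96 in XY-sry and 5.81 in XY- thymus, where the first had 7.21 and 7.28. The second Srebf2 probe set rose in XY- by 0.34 (adjusted p = 0.0165), next to 0.30 for the first. Which transcripts these probe sets detect was not tested.

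**Figure D5:**
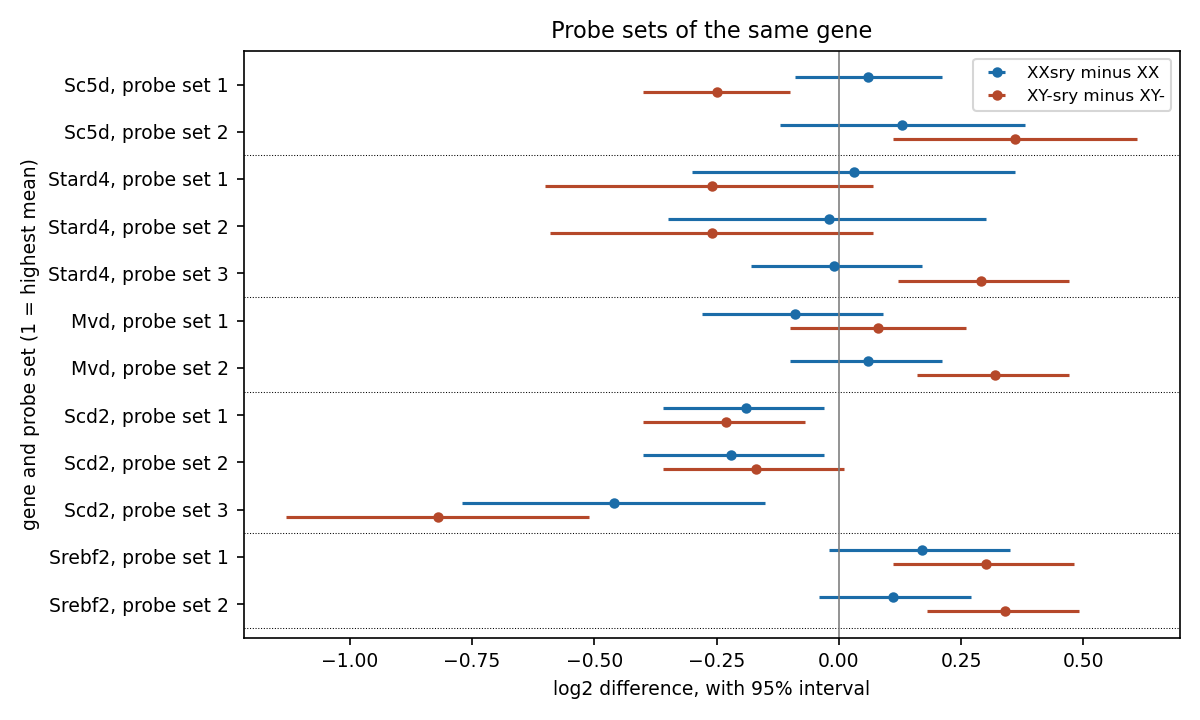
Log2 difference with its 95% interval for every tested probe set of 5 genes (vertical axis, numbered by mean level), XXsry minus XX in blue and XY-sry minus XY- in red. The differences of all 3 Scd2 probe sets are below 0 and those of both Srebf2 probe sets above 0 in each complement, whereas those of Sc5d and Stard4 lie on both sides of 0 in XY-.

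Other genes of the same pathways were read from lists drawn up by function, and none of them passed in XX thymus, in a complement comparison or in the interaction. Of 5 further tested genes listed with cholesterol synthesis, not all of them enzymes of that pathway, none passed over both complements or within XY-. The medians were -0.01 and 0.02. The 2 of them with the highest mean signal were Acat1, the mitochondrial thiolase (0.03, adjusted p = 0.644), and Ebp, a sterol isomerase (-0.01, 0.901). Of 11 further genes of SREBP control and sterol uptake none passed in these comparisons (medians 0.03 and -0.02). Npc2, which hands cholesterol out of lysosomes, differed by -0.06 in XY- (adjusted p = 0.567) and Gramd1a, a sterol carrier of the endoplasmic reticulum, by -0.12 (0.277).

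Of 20 further tested genes of fatty acid synthesis and activation none passed over both complements (median 0.04). Within XY- 1 rose and none fell, against 4.27% and 4.37% of all probe sets. Of the 20, 16 were positive (median 0.07), where 62.5% of all probe sets were positive. The gene that rose was Hsd17b12, a ketoreductase of chain elongation. It read 7.96, 7.79 and 7.88 in XY-sry thymus against 7.58, 7.31 and 7.69 in XY- thymus, a difference of 0.35 ± 0.0853 (limma adjusted p = 0.0284). It read 7.73, 7.72 and 7.67 in XXsry thymus against 7.95, 7.91 and 7.85 in XX thymus, where the arrays with Sry were lower without overlap (difference -0.2, adjusted p = 0.38). The call in XY- was lost without XY-sry replicate 1 or replicate 3 and with the actin covariate (0.13, adjusted p = 0.465).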

How the data were processed

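Log2 probe set values were deposited by the authors, made with RMA per the submitters' processing notes; the RMA version and the genome build are not given in the sources used here. Testing used 17925 of 45101 probe sets, those that were not 1 of 64 controls and averaged 5 or more on the log2 scale. Group means were fitted with limma 3.58.1 in R 4.3.3 (lmFit and eBayes, 8 residual and 3.71 prior degrees of freedom), and 7 contrasts and an F test were called at a Benjamini-Hochberg adjusted p under 0.05. The number of arrays limits precision. Probe sets were named through the platform table. RefSeq promoters were those of GRCm38.p6.

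The members, the 6 lists of other lipid genes and the 10 marker lists were chosen with earlier results of these data known. Array values are given for members called in any contrast and, up to 10 genes, for those with the smallest p in each direction; of the other lists, called genes or the 2 brightest. Members below that are given by differences. Names chosen after their values were seen are said to be. Alternatives were filters, scalings, variance models, array weights, the actin covariate, the treatment of several probe sets, thresholds, the groups fitted, a replicate block and each array left out. Figures were drawn with matplotlib 3.10.9.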

Additional observations from a re-analysis of the deposited data

How the results depend on the processing

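The counts of the 30 genes called depended on the settings as follows, with 4 called for Sry over both complements, 4 within XY- and 1 for any difference among the groups in the analysis reported. Without a filter on dim probe sets the counts were 1, 1 and 0, in that order, and with the actin covariate 1, 0 and 0. The shares of all probe sets called fell too, to 1.54% over both complements and 2.77% within XY- without the filter, and to 4.83% and 0.301% with the covariate. Array weights, which gave XY- replicate 1 a weight of 6.67 and XY- replicate 2 one of 0.204 and called 24.3% of all probe sets for Sry over both complements and 23.7% within XY-, raised the counts to 9, 9 and 10, and gave 2 genes for Sry in XX, 2 for the complement without Sry and 1 for the interaction, where 7.36%, 8.24% and 7.1% of all probe sets were called, in that order. At an adjusted p under 0.1 the counts were 7, 9 and 2, and with a log2 difference of at least 0.5 as a further condition none of the 30 passed, 0 over both complements and 0 within XY-. Within XY- there were 2 under quantile normalization and 2 under the replicate block, where 8.46% and 9.02% of all probe sets were called, in that order. There were 0 when only the groups compared were fitted, a fit whose share of all probe sets is not given. For any difference among the groups an intensity trend with robust settings gave 2 and averaging each gene's probe sets 3. Shares of all probe sets are not given for the adjusted p under 0.1, for the fold condition or for any difference under other settings.

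Leaving out 1 array at a time gave 1 to 5 genes over both complements, 0 to 4 within XY- and 0 to 1 for any difference, while 2.91% to 9.73% of all probe sets were called over both complements and 3.01% to 8.51% within XY-. The lowest counts came without XXsry replicate 2, XY-sry replicate 1 or XY-sry replicate 3 (1 gene each, over both complements) and without XY-sry replicate 3 (0, within XY-). Acaca over both complements kept its call in 23 of 24 alternatives, all but the added fold condition. Sc5d in XY- reversed to 0.05 when its probe sets were averaged. The replicate numbers were not taken to pair the arrays, since 8 of 18 same-number pairs, not every pair, had a correlation above 0.1 (range -0.08 to 0.31); 8 of 12 arrays correlated best with their own number, a hint from the data and not the design.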

Other observations

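In the branch of mevalonate that feeds prenylation, dolichol and ubiquinone, none of 11 tested genes passed for Sry over both complements (median log2 difference 0.01). Within XY- 1 rose and none fell, against 4.27% and 4.37% of all probe sets, and 10 of 11 were positive (median 0.10), where 62.5% of all probe sets were positive. The gene that rose was Rce1, a protease that trims prenylated proteins. It read 7.26, 7.38 and 7.44 in XY-sry thymus against 7.19, 7.06 and 7.2 in XY- thymus, without overlap, a difference of 0.21 ± 0.0583 (limma adjusted p = 0.0461). The call held in 1 of 12 fits that left out 1 array, the one without XY-sry replicate 1.

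From a list of LXR targets and genes of sterol efflux and esterification 8 were tested. The esterification genes Soat1, Soat2 and Lcat were not among them. None of the 8 passed over both complements or within XY-, and 6 of 8 were negative in each (medians -0.07 and -0.09). Within XY- Apoe, the lipoprotein of cholesterol export, differed by -0.01 (adjusted p = 0.946) and Mylip, which marks lipoprotein receptors for destruction, by -0.22 (0.0835). Of 14 tested genes of fatty acid oxidation none passed in either comparison (medians 0.08 and 0.09). Within XY- the oxidation enzyme genes Hadh and Hadhb differed by 0.09 (adjusted p = 0.55) and -0.03 (0.77).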
